A study of Mus musculus with 16 samples.

Results

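The genes studied here encode the 7 subunits of the AMP-activated protein kinase (AMPK), the adiponectin receptors Adipor1 and Adipor2, and Ppargc1a, the gene of PGC-1α. They were followed in gastrocnemius muscle of mice that received rosiglitazone with or without marine fatty acids of the n-3 series (n-3 LC-PUFA). Every non-control probe whose deposited gene name was Prkaa1, Prkaa2, Prkab1, Prkab2, Prkag1, Prkag2, Prkag3, Adipor1, Adipor2 or Ppargc1a was taken, which gave 18 of the 41174 probes on the array and 10 of its 27745 gene names. Of these, 16 passed the background filter and covered all 10 genes, against 19398 probes that passed it in all.

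AMPK is a trimer of a catalytic α subunit, a scaffolding β subunit that binds glycogen, and a γ subunit that binds AMP, ADP and ATP. It is switched on when cellular energy falls and promotes fatty acid oxidation and glucose uptake in muscle. Adiponectin, a hormone of adipocytes, acts through Adipor1 and Adipor2, membrane proteins of the PAQR family that couple to AMPK and to ceramide breakdown. PGC-1α is a transcriptional coactivator that drives mitochondrial and oxidative-fibre genes, and AMPK phosphorylates it.

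Both groups were male C57BL/6N mice, 3 months old when the diets started, and were fed for 8 weeks. The cHF+ROSI group (8 mice) ate a corn oil-based high-fat diet, cHF, with about 35% lipid by weight and rosiglitazone, a PPARγ agonist of the thiazolidinedione class, at 10 mg/kg diet. The cHF+F+ROSI group (8 mice) ate the same diet and drug dose, with a concentrate of n-3 LC-PUFA, mainly DHA and EPA, in place of 15% of the dietary lipids. All mice had been without food for 10 h of daylight and then had Chow overnight, so no sample shows the muscle while the high-fat diet was being eaten, and neither group lacked the drug. Each mouse was hybridised in Cy5 against a common Cy3 pool of RNA, without dye swap, on 4 slides of 4 arrays. On each slide, positions 1 and 3 held cHF+ROSI and positions 2 and 4 held cHF+F+ROSI, so that array position and diet cannot be told apart. The p-values measure the spread between these mice, which were housed in pairs, with cage not given per array. In whole muscle, a lower signal from fewer cells of a type and one from less RNA per cell cannot be told apart.

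A value below is the log2 ratio of a mouse's Cy5 signal over the Cy3 pool, and a difference is the mean of cHF+F+ROSI minus that of cHF+ROSI. A level on this scale is relative to the pool, so probes are not ranked by it. The ratios shown here were made from median signals without background correction. The planned normexp correction narrowed the ratios of 3 arrays, cHF+ROSI mice 1 and 5 and cHF+F+ROSI mouse 5, to interquartile ranges of 0.056 to 0.16, against 0.39 to 0.49 on the others. Its results are given beside them, called normexp values. Array cHF+ROSI 1 was also the dimmest, with a median Cy5 signal 2.33 times the background, against 2.98 to 3.64 times on the other 15 arrays.

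**Figure D1:**
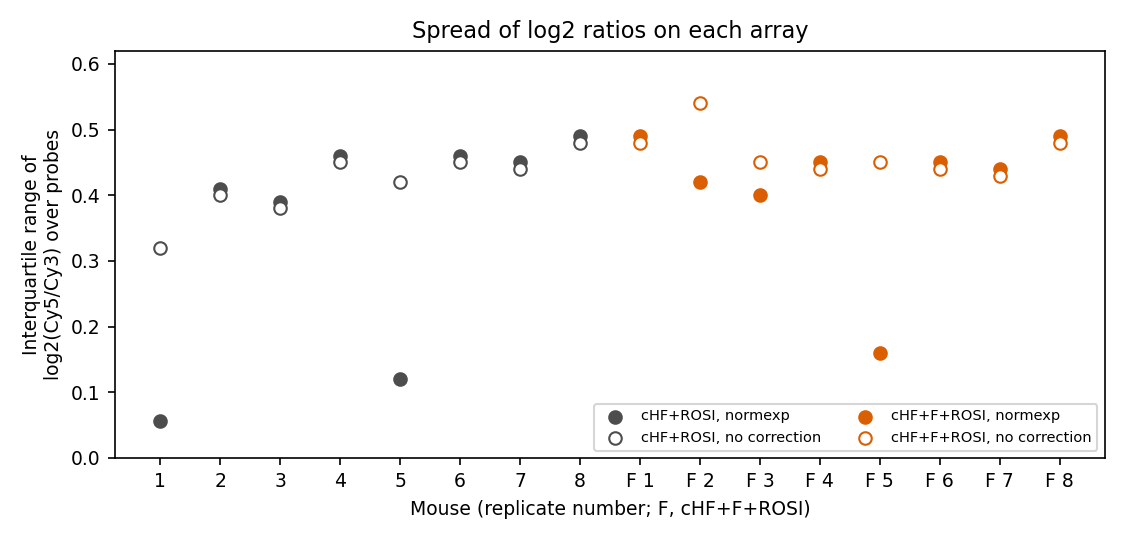
Interquartile range of log2(Cy5/Cy3) over probes on each of the 16 arrays, with normexp correction (filled) and without correction (open). Without correction the ranges ran from 0.32 to 0.54, whereas with normexp 3 arrays lay at 0.16 or below.

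The diet difference was small for all 10 genes. None of the 16 probes passed an adjusted p of 0.05 (limma with Benjamini-Hochberg adjustment over 19398 probes), where 14 probes did over the whole array, or 0.0722%. The lowest adjusted p among the 16 was 0.233. At an unadjusted p of 0.05, 2 of 16 probes passed, 1 of Adipor1 and 1 of Adipor2, both lower in cHF+F+ROSI, against 10.3% of all probes (4.91% lower and 5.37% higher). With normexp, 0 of 16 passed the adjusted limit (0.0155% of all probes) and 1 of 16 the unadjusted limit (7.44% of all probes), the same Adipor1 probe. The 95% intervals of all 16 fold changes lay between 0.729 and 1.40 (normexp 0.659 to 1.41). Of the 16 differences 9 were below 0 and 7 above, with a median of -0.02, while the median over all probes was 0. The values of the groups overlapped for every one of the 16 probes, as they did for nearly all probes of the array, of which 28, or 0.144%, had none. In Cy3, the channel of the common pool, 0 of 16 probes differed between the groups at an unadjusted p of 0.05 (3.47% of all probes, normexp).

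**Figure D2:**
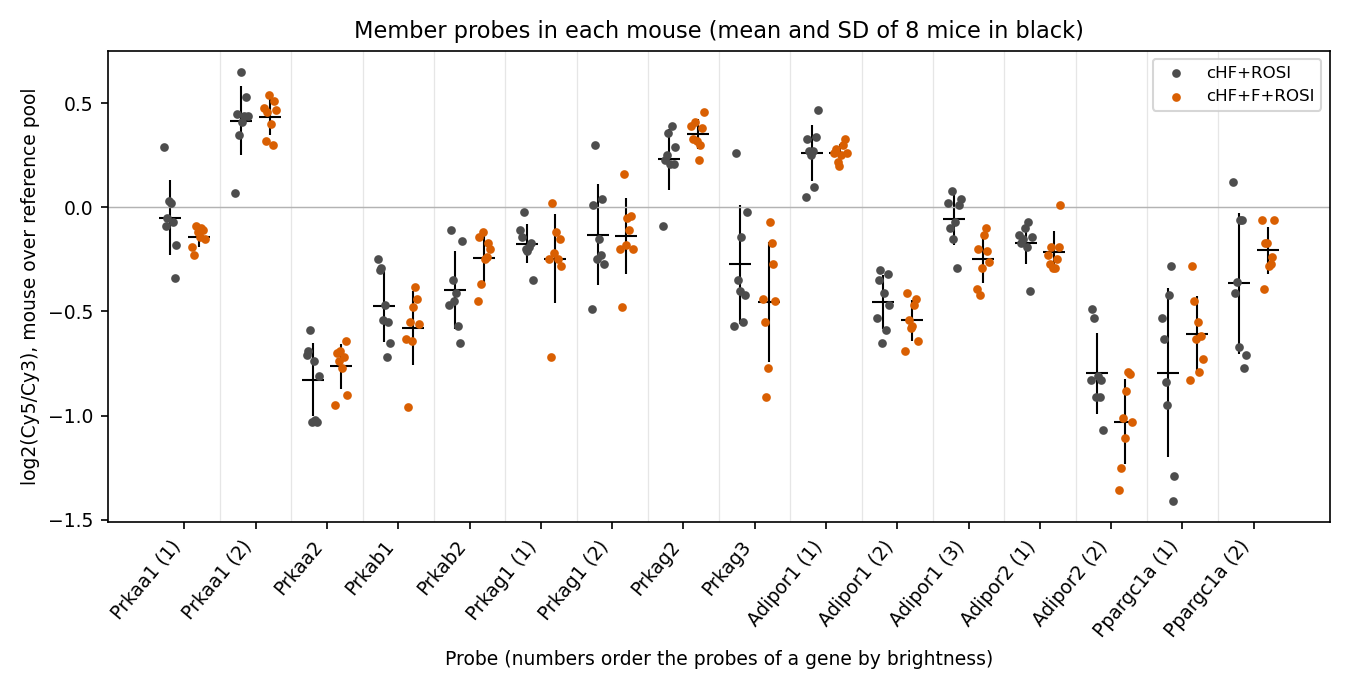
log2(Cy5/Cy3) of the 16 probes in each mouse, grey for cHF+ROSI and orange for cHF+F+ROSI, with mean and SD of 8 mice in black. The groups overlap for every probe, and the largest spread is that of Ppargc1a in cHF+ROSI.

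**Figure D3:**
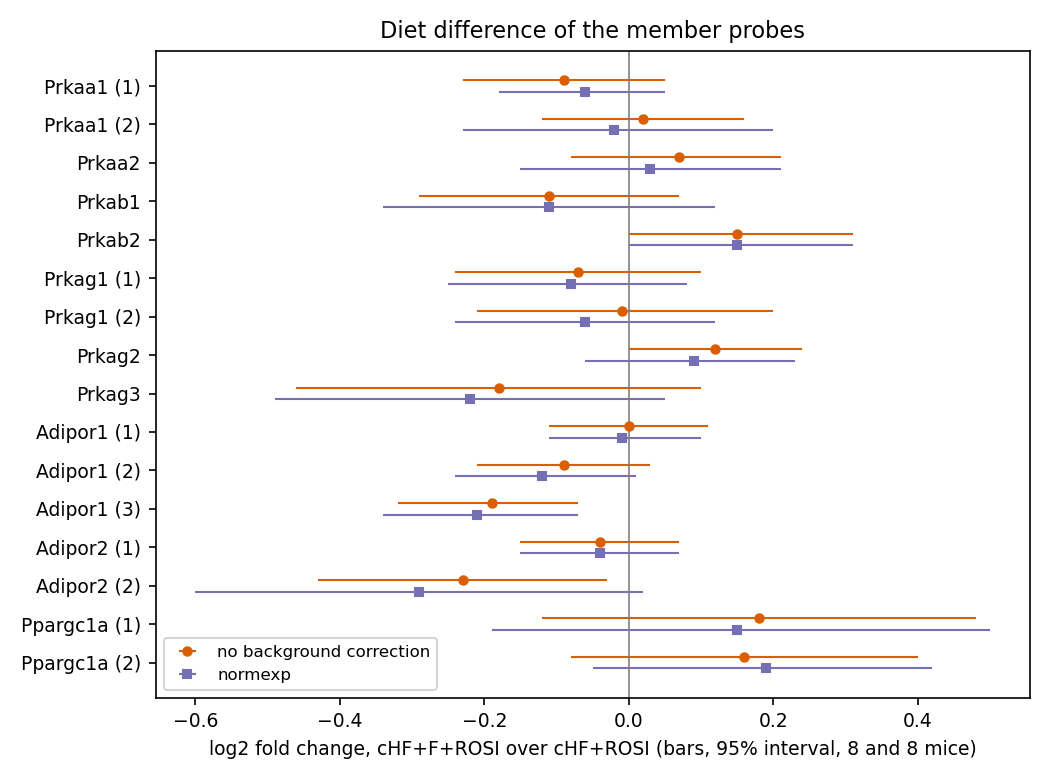
log2 fold change of each probe, cHF+F+ROSI over cHF+ROSI, with 95% intervals, without background correction and with normexp. Numbers order the probes of a gene by brightness, Adipor1 (3) being the downstream probe. Without correction the intervals of Adipor1 (3) (-0.32 to -0.07) and Adipor2 (2) (-0.43 to -0.03) exclude 0, and with normexp only that of Adipor1 (3) does.

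The catalytic subunits are encoded by Prkaa1 (α1, the broadly expressed form) and Prkaa2 (α2, the main form of skeletal muscle). The brighter Prkaa1 probe (mm8 chr15:5128641-5128700) ran from -0.34 through a median of -0.06 to 0.29 in cHF+ROSI and from -0.23 through -0.13 to -0.09 in cHF+F+ROSI. All cHF+F+ROSI mice lay within the range of the cHF+ROSI mice. The difference was -0.09 (SE 0.07, 95% interval -0.23 to 0.05, limma adjusted p = 0.662; normexp -0.06, adjusted p = 0.839). The dimmer probe, whose ends span 1542 bases of chr15 (5124365-5125906), averaged 0.42 ± 0.17 (SD, n = 8) in cHF+ROSI and 0.43 ± 0.09 (n = 8) in cHF+F+ROSI, a difference of 0.02. Its sign turned with normexp, to -0.02. Prkaa2 (chr4:104533035-104533094) ran from -1.03 through -0.78 to -0.59 in cHF+ROSI and from -0.95 through -0.73 to -0.64 in cHF+F+ROSI, so that again the groups lay in the same range. Its difference was 0.07 (SE 0.07, interval -0.08 to 0.21, adjusted p = 0.778; normexp 0.03, adjusted p = 0.969). Neither catalytic subunit therefore showed a diet difference beyond the spread between mice.

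The differences of the β subunits had opposite signs, and neither passed the adjusted test. Prkab1 (β1; chr5:116275087-116275146) ran from -0.72 through -0.50 to -0.25 in cHF+ROSI and from -0.96 through -0.56 to -0.38 in cHF+F+ROSI, where mouse 2 held the lowest value. The difference was -0.11 (SE 0.08, interval -0.29 to 0.07, adjusted p = 0.674; normexp -0.11, adjusted p = 0.864), and it was -0.06 without that mouse. Prkab2 (β2, the form abundant in skeletal muscle; chr3:97758325-97758384) ran from -0.65 through -0.43 to -0.11 in cHF+ROSI and from -0.45 through -0.22 to -0.12 in cHF+F+ROSI. In cHF+F+ROSI, 7 of 8 mice exceeded the mean of cHF+ROSI, and the groups overlapped. The difference was 0.15 (SE 0.07, interval 0.00 to 0.31, adjusted p = 0.495, two-sided exact permutation p = 0.067; normexp 0.15, adjusted p = 0.681). Within the 4 slides it was 0.04, 0.21, 0.28 and 0.08. Subtracting Prkab1 from Prkab2 in each mouse gave 0.07 ± 0.21 (SD, n = 8) in cHF+ROSI and 0.34 ± 0.23 (n = 8) in cHF+F+ROSI. The ranges of this contrast, -0.22 to 0.48 and 0.14 to 0.83, overlapped, and it was not tested.

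Among the γ subunits, which sense the adenine nucleotides, the signs were mixed. The brighter Prkag1 probe (γ1, the common form; chr15:98641005-98641064) ran from -0.35 through -0.18 to -0.02 in cHF+ROSI and from -0.72 through -0.23 to 0.02 in cHF+F+ROSI. Its lowest value came from cHF+F+ROSI mouse 2, and the other 7 mice of that group lay at -0.28 or above. On that mouse's array the spot was also low in Cy3, the common pool, at 877, against 1389 to 1828 on the others. Whether the spot or the muscle gave the low ratio was not tested. The difference was -0.07 (SE 0.08, interval -0.24 to 0.10, adjusted p = 0.785; normexp -0.08, adjusted p = 0.852), and the other Prkag1 probe (chr15:98642589-98642648) gave -0.01 (normexp -0.06). Without cHF+F+ROSI mouse 2 the difference of the brighter probe was 0.00. Prkag2 (γ2, whose mutations cause a glycogen storage cardiomyopathy; chr5:24372982-24373041) ran from -0.09 through 0.24 to 0.39 in cHF+ROSI and from 0.23 through 0.36 to 0.46 in cHF+F+ROSI. Every cHF+F+ROSI mouse (8 of 8) exceeded the mean of cHF+ROSI, but the groups overlapped. The difference was 0.12 (SE 0.06, interval 0.00 to 0.24, adjusted p = 0.498, exact permutation p = 0.0347; normexp 0.09, adjusted p = 0.821), and it was 0.07 without the dimmest array, cHF+ROSI 1, which held the lowest value. A dimmer Prkag2 probe (chr5:24385603-24385662) was well above background on 0 of 16 arrays and was left out by the filter. Prkag3 (γ3, found almost only in glycolytic skeletal muscle; ends span 390 bases, chr1:74674013-74674402) ran from -0.57 through -0.38 to 0.26 in cHF+ROSI and from -0.91 through -0.44 to -0.07 in cHF+F+ROSI. Its SD of 0.29 in both groups was the widest of the AMPK subunits, and the difference of -0.18 (SE 0.13, interval -0.46 to 0.10, adjusted p = 0.66; normexp -0.22, adjusted p = 0.726) stayed within it. Within slides it was -0.58, -0.04, 0.13 and -0.22, and without cHF+ROSI mouse 2 the difference was -0.10.

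Adipor1, the receptor form most abundant in muscle, was read by 3 probes. Their differences ran from -0.19 to 0.00, and no pair of these probes differed at the adjusted limit. Along the plus strand of chr1 these were an upstream probe (ends 136241293-136242338, spanning 1046 bases), a middle probe (136248469-136248528), which was the brightest, and a downstream probe (136249459-136249518). In the deposited annotation the upstream and middle probes are assigned to the RefSeq transcript of Adipor1, and the downstream probe to a separate cDNA record. Whether the downstream probe lies in an exon or in a UTR is not stated here, because no mm8 annotation was used. The downstream probe held 0.02, -0.10, 0.08, -0.15, -0.07, -0.29, 0.01 and 0.04 in cHF+ROSI mice 1 to 8. It held -0.39, -0.20, -0.42, -0.29, -0.13, -0.10, -0.21 and -0.26 in cHF+F+ROSI mice 1 to 8. All 8 cHF+F+ROSI mice lay below the cHF+ROSI mean, but the groups overlapped, with cHF+ROSI mice 4 and 6 lower than some cHF+F+ROSI mice. The difference was -0.19 (SE 0.06, interval -0.32 to -0.07), or 0.874-fold (0.802 to 0.953). It passed the unadjusted test (limma p = 0.00432, exact permutation p = 0.00684) but not the adjusted 1 (adjusted p = 0.233; normexp -0.21, adjusted p = 0.407). Within slides it was -0.27, -0.18, 0.02 and -0.35, and without the 3 arrays named above it was -0.20 (exact permutation p = 0.0175).

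The middle Adipor1 probe showed no such shift. It ran from 0.05 through 0.27 to 0.47 in cHF+ROSI and from 0.20 through 0.26 to 0.33 in cHF+F+ROSI, a difference of 0.00 (SE 0.05, interval -0.11 to 0.11, adjusted p = 0.997). The upstream probe ran from -0.65 through -0.44 to -0.30 and from -0.69 through -0.55 to -0.41, a difference of -0.09 (SE 0.06, interval -0.21 to 0.03, adjusted p = 0.615; normexp -0.12, adjusted p = 0.698). The difference of the middle minus that of the downstream probe was 0.20 (SE 0.06, interval 0.07 to 0.33, exact permutation p = 0.00218). Tested over 7638 pairs of probes of the same gene, it did not pass (limma adjusted p = 0.568), and 605 pairs, or 7.92%, had an unadjusted p up to 0.05. With normexp it was 0.20 (adjusted p = 0.898), with 4.9% of pairs at that limit. Within groups, the 3 probes correlated with r of 0.38 to 0.58, against a median of 0.40 over the pairs of all genes, a description across 16 arrays.

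**Figure D4:**
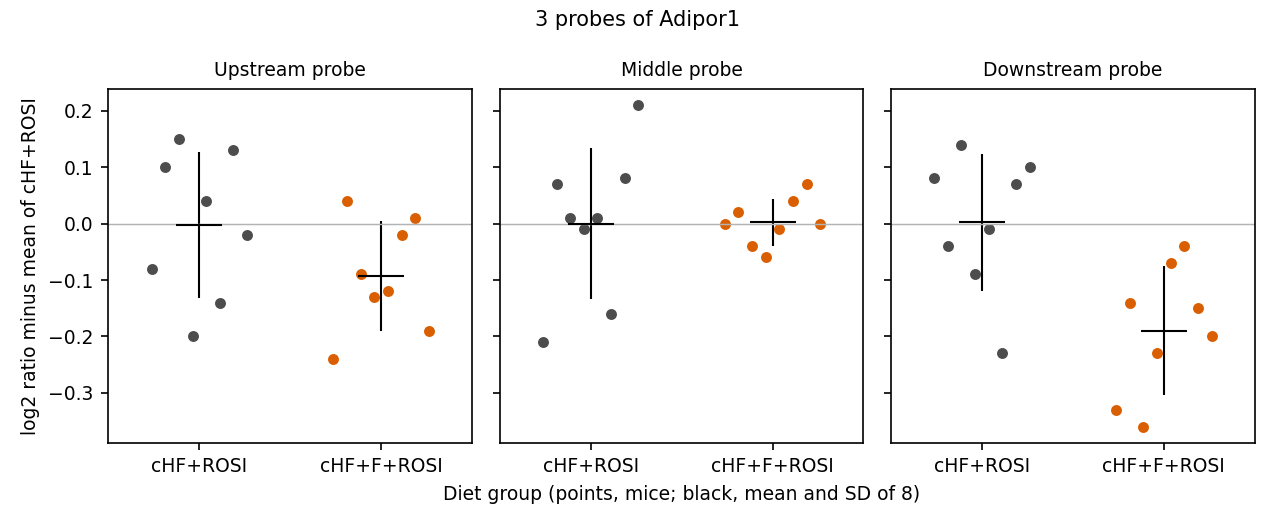
Values of the upstream, middle and downstream Adipor1 probes in each mouse, as log2 ratio minus the cHF+ROSI mean of that probe, with mean and SD of 8 mice in black. The groups share their mean in the middle panel, and all 8 cHF+F+ROSI mice lie below 0 in the downstream panel.

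Adipor2, the receptor form linked mainly to PPARα signalling in liver, was read by 2 probes past the filter, on the minus strand of chr6. The brighter probe (119318823-119318882) ran from -0.40 through -0.15 to -0.07 in cHF+ROSI and from -0.29 through -0.24 to 0.01 in cHF+F+ROSI. The difference was -0.04 (SE 0.05, interval -0.15 to 0.07, adjusted p = 0.812; normexp -0.04). The other probe, further upstream (ends 119325102-119327451, spanning 2350 bases), ran from -1.07 through -0.83 to -0.49 in cHF+ROSI and from -1.36 through -1.02 to -0.79 in cHF+F+ROSI. The lowest values of this probe belonged to cHF+F+ROSI mice, and the groups overlapped. Its difference was -0.23 (SE 0.09, interval -0.43 to -0.03), which passed the unadjusted limma test (p = 0.0239, exact permutation p = 0.0379) but not the adjusted 1 (adjusted p = 0.403). With normexp it was -0.29 (adjusted p = 0.694, exact permutation p = 0.101), so the unadjusted call was lost there. Without any 1 of cHF+ROSI mice 2 and 3 and cHF+F+ROSI mice 1 and 2 the unadjusted call was also lost, at differences of -0.20 to -0.19. Slide 3 ran against the other slides, at 0.06 against -0.47, -0.28 and -0.25. The 2 probes differed in their diet difference by 0.19 (exact permutation p = 0.115), and across mice within groups they did not move together (r = -0.02). Another probe (chr6:119324317-119324376) was well above background in Cy5 on 1 array and was left out.

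Ppargc1a was the gene with the widest spread. Its brighter probe (chr5:51745937-51745996) held -0.53, -0.63, -0.84, -0.95, -0.42, -0.28, -1.41 and -1.29 in cHF+ROSI mice 1 to 8. It held -0.83, -0.28, -0.45, -0.63, -0.55, -0.79, -0.62 and -0.73 in cHF+F+ROSI mice 1 to 8. Mice 7 and 8 of cHF+ROSI, both on slide 4, were the lowest of all 16, whereas the other cHF+ROSI mice covered much the same range as the cHF+F+ROSI mice. The difference was 0.18 (SE 0.14, interval -0.12 to 0.48, adjusted p = 0.687; normexp 0.15, adjusted p = 0.881), and within slides it was 0.21, 0.31, -0.36 and 0.57. It ranged from 0.09, without cHF+ROSI 7, to 0.26, without cHF+ROSI 6, when 1 array was left out, and was 0.28 without the 3 arrays named above (exact permutation p = 0.144). The other probe (chr5:51743906-51743965) ran from -0.77 through -0.39 to 0.12 and from -0.39 through -0.21 to -0.06, a difference of 0.16 (SE 0.12, interval -0.08 to 0.40, adjusted p = 0.66; normexp 0.19, adjusted p = 0.731). Leaving out 1 array moved it between 0.10, without cHF+ROSI 7, and 0.23, without cHF+ROSI 1. Without the 3 arrays named above it was 0.30 (SE 0.10, limma adjusted p = 0.456, exact permutation p = 0.0256). The probes moved together across mice within groups (r = 0.69). The SD of the brighter probe was 0.41 for cHF+ROSI and 0.18 for cHF+F+ROSI, and that of the other was 0.34 and 0.11. The SD was larger in cHF+ROSI for 12 of the 16 probes and for 61.0% of all probes. Without the 3 arrays it was larger there for 14 of 16, against 47.1% of all probes. These shares are a description, with no test.

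Fibre composition was followed through 11 genes of oxidative fibres, such as the myosin heavy chain Myh7 and the troponin Tnni1, because the subunits differ between fibre types. The mean log2 ratio of these genes varied widely between mice, from -1.24 to 0.63 in cHF+ROSI and from -2.11 to 0.28 in cHF+F+ROSI. The lowest mice were cHF+F+ROSI 2 and cHF+ROSI 8. The median difference of the list between the groups was -0.41, with 10 of 11 genes below 0, against 49.3% of all probes. None passed the adjusted limit (0 of 11 at an unadjusted p of 0.05 too). The 11 genes were read in the same mice and are not 11 separate observations. Of 10 genes of glycolytic fibres, 5 were below 0 and 5 above, with a median of -0.03. Of these, 0 passed the adjusted limit, and 1 was higher and 0 lower at the unadjusted limit. Whether either list as a whole differed between the diets was not tested. All 8 general skeletal muscle markers, such as Ckm and Acta1, were well above background on every array.

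The brighter Prkag1 probe followed the oxidative genes closely. Over 16 mice it correlated with their mean at Pearson's r = 0.91 and Spearman's rho = 0.78 (permutation test, p adjusted over 10 genes 3e-04 and 0.007). When the 2 mice at the extremes of the oxidative mean, cHF+F+ROSI 2 and cHF+ROSI 8, were left out, r was 0.73. Without cHF+F+ROSI 2 alone, whose spot was low in Cy3 too, r was 0.81. It was 0.86 within cHF+ROSI, 0.97 within cHF+F+ROSI, 0.92 with each slide centred on its mean and 0.92 without the 3 arrays named above. Only 8 of 19386 other probes correlated as strongly with the oxidative mean. The dimmer Prkag1 probe gave r = 0.55 and rho = 0.39, and its within-group correlation with the brighter probe was 0.68. Within cHF+ROSI the r of the dimmer probe with the oxidative mean was 0.28 (normexp 0.56). Within cHF+F+ROSI, the group of mouse 2, it was 0.92 (normexp 0.89). Over all mice 8.28% of other probes correlated as strongly as the dimmer probe.

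With each gene read by its brightest probe, Prkag1 was the only gene of the 10 that passed for both r and rho. Prkab2 ran the other way, with r = -0.56 and rho = -0.68 (permutation p adjusted over 10 genes 0.0656 and 0.0234), and r was -0.49 when those 2 mice were left out. For Prkab1, r was 0.65 and rho 0.45 (permutation p adjusted over 10 genes 0.0463 and 0.2), and r was 0.21 without the same 2 mice, so that this relation rests on them. With normexp its r was 0.46 (permutation p adjusted over 10 genes 0.174), and the call was lost. Ppargc1a, known as a driver of oxidative fibres, gave r = 0.01 and rho = 0.14 (permutation p adjusted over 10 genes 0.974 and 0.797). That pooled r joined 0.44 in cHF+ROSI with -0.51 in cHF+F+ROSI, and this difference was not tested. The other Ppargc1a probe gave r = 0.34 and rho = 0.39 over all mice, with 0.54 and 0.56 within the groups. The levels of the 10 genes were also compared with each other, and in none of the 45 pairs did r or rho pass after adjustment. With normexp 3 pairs passed for r (Prkaa2 with Prkab1, Prkab1 with Prkag2, and Adipor1 with Ppargc1a) and 0 for rho.

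**Figure D5:**
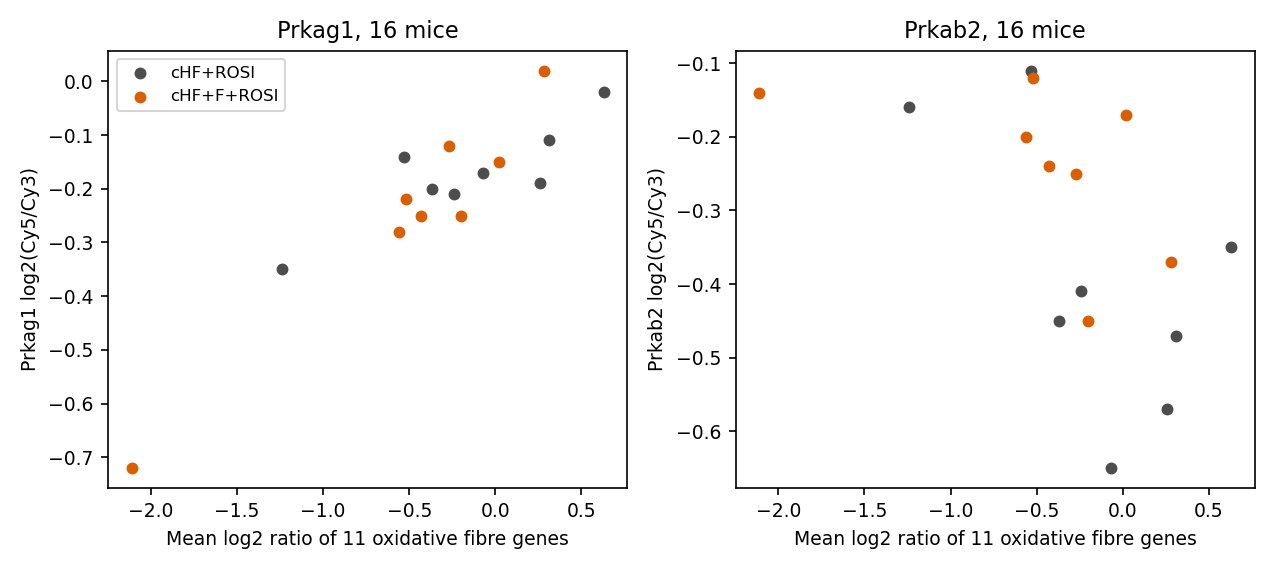
log2(Cy5/Cy3) of the brighter Prkag1 probe (left) and of Prkab2 (right) against the mean log2 ratio of 11 oxidative fibre genes, 16 mice. Prkag1 rises with the oxidative mean in both groups (r = 0.86 and 0.97). The point at the far lower end is cHF+F+ROSI mouse 2, whose Prkag1 spot was also low in Cy3. Prkab2 falls with the oxidative mean over all mice (r = -0.56).

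For each gene the probes of other genes most like it were taken as those with the highest Pearson's r over the 16 arrays, among 14528 candidates. For Prkag1 these were Hadhb (r = 0.95), the β subunit of the mitochondrial trifunctional protein, and Acads (r = 0.93), the short-chain acyl-CoA dehydrogenase. Hadhb and Acads also followed the mean of the oxidative fibre genes, at r = 0.92 and 0.86. For Prkab2 they were Gpd2 (r = 0.94), the mitochondrial glycerol-3-phosphate dehydrogenase, and Vti1a (r = 0.82). For Prkab1 they were Dlgap4 (0.95) and Gcn1 (0.92), and for Prkaa1 Rcor1 (0.92) and Ganab (0.91). For Prkaa2 the highest were Tnfrsf21 (0.85) and Dusp14 (0.83), and for Prkag3 Capza2 (0.80) and Selenow (0.78). For Prkag2 they were Fam120b (0.92) and Osmr (0.91). These 2 also followed the median Cy5 signal over background of the arrays, at r = 0.67 and 0.51. Prkag2 itself did so at r = 0.69, or 0.15 without the dimmest array. Adipor1 was most like Creg1 and Snx5 (0.87 each), Adipor2 like Gga3 (0.80) and Tmem109 (0.79), and Ppargc1a like Vmn1r192 (0.85) and Pakap (0.80). Vmn1r192 and Osmr were dim, at 4.12 and 3.37 times the background in Cy5. In Cy3 they lay at 2.23 and 2.02 times, close to the filter limit of 2. With normexp the genes most like Ppargc1a were Vmn1r46 (0.89) and Olfr744 (0.88). These correlations share arrays, mice and the choice of the best of many candidates, and carry no test.

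The promoters of Prkag1 and of its closest genes, Hadhb and Acads, are shown because these genes moved together across mice. All 3 also moved with the oxidative fibre mean, and shared control through their promoters was not tested. They are the 250 bases before each start site in RefSeq (GRCm38.p6, not the build of the probe positions above), 5′ to 3′ on the strand of the gene. Capitals mark the GC box GGGCGG or its reverse CCGCCC.
Prkag1, chr15:98831509-98831758, minus strand: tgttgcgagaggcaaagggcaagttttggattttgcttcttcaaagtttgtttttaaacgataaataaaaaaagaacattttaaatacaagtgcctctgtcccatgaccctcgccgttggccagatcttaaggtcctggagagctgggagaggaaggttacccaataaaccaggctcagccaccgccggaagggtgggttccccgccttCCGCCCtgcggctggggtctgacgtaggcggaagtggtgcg
Hadhb, chr5:30155003-30155252, plus strand: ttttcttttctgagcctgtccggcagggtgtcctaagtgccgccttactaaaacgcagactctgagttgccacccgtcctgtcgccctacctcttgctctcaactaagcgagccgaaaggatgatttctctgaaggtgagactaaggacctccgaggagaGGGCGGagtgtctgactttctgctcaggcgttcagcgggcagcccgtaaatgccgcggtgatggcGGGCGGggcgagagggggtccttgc
Acads, chr5:115119347-115119596, minus strand: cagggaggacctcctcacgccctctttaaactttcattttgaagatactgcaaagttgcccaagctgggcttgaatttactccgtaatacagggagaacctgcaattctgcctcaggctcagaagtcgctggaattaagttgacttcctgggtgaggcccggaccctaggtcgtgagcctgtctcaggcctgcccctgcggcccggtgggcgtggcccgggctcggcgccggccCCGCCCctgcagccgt
The GC box was found 1 time in Prkag1, 2 times in Hadhb and 1 time in Acads, on either strand, and 32.7% of 32851 mouse promoter windows of this length held it. The site bound by estrogen-related receptors, AAGGTCA or TGACCTT, partners of PGC-1α, was in none of the 3 windows and in 4.08% of all. These matches are letters in a window and are not shown to be bound.

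The upstream regulators of AMPK were measured for 17 of 18 listed genes. Their median difference was -0.01 and 0 passed the adjusted limit. At an unadjusted p of 0.05, 1 of 17 was higher and 1 lower, against 5.37% and 4.91% of all probes. Strada, a pseudokinase partner of LKB1, was higher (0.14, SE 0.06, limma adjusted p = 0.451). Ampd1, the muscle AMP deaminase that removes AMP, was lower (-0.20, SE 0.08, adjusted p = 0.387). Stk11, which encodes the AMPK kinase LKB1, gave -0.09 (SE 0.05, adjusted p = 0.577).

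Of 18 listed AMPK substrates 17 were measured, with a median of -0.01 and 0 past the adjusted limit. At the unadjusted limit 3 of 17 were higher and 0 lower, against 5.37% and 4.91% of all probes. They were Acaca (0.18, SE 0.07, limma adjusted p = 0.368) and Acacb (0.14, SE 0.07, adjusted p = 0.471), the acetyl-CoA carboxylases that make malonyl-CoA, and Tsc2 (0.11, SE 0.05, adjusted p = 0.458), a brake on mTORC1. Among 8 measured of 13 listed AMPK-related kinases the median was -0.04 and 0 passed the adjusted limit. At the unadjusted limit 0 of 8 were higher and 2 lower, beside the same shares of 5.37% and 4.91% of all probes. The lower genes were Mark2 (-0.21, SE 0.08) and Nuak1 (-0.24, SE 0.11), while Sik1 gave -0.20 (SE 0.10) and did not pass.

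On the side of the receptors, 8 of 9 listed genes of adiponectin and the partners of its receptors were measured, with a median of -0.01 and 0 past the adjusted limit. At the unadjusted limit 0 of 8 were higher and 1 lower, against 5.37% and 4.91% of all probes. That gene was Cdh13, which encodes the adiponectin-binding T-cadherin (-0.16, SE 0.07, limma adjusted p = 0.413). Asah2, a ceramidase, gave 0.11 (SE 0.06) and did not pass it. Cdh13 is expressed by endothelium as well. Of 8 endothelial marker genes, 5 were lower at the unadjusted limit (4 with normexp), against 4.91% of all probes. Their count past the adjusted limit was 0, and 2 of the 8 had a difference above 0. The list median was -0.14, with list means from -0.26 to -0.02 in cHF+ROSI mice and from -0.30 to -0.06 in cHF+F+ROSI mice. The part of endothelial RNA in the Cdh13 value was not tested. Adiponectin itself, Adipoq, ran from -1.20 to 0.53 in cHF+ROSI and from -1.67 to 1.23 in cHF+F+ROSI (difference 0.48, SE 0.40, adjusted p = 0.71). The mean of the other 7 adipocyte markers, all well above background, ran from -0.90 to 0.39 in cHF+ROSI mice and from -1.19 to 0.87 in cHF+F+ROSI mice. It was lowest in cHF+F+ROSI mouse 1, as Adipoq was, and the part of adipocyte RNA in the Adipoq value was not tested. The other PAQR receptors were measured for 5 of 9 genes, with a median of 0.05 and 0 past either limit, among them Paqr6 (-0.18), Paqr4 (0.07) and Paqr7 (0.05).

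The PGC-1 family and its partner factors were measured for 23 of 24 genes, with a median of -0.05 and 0 past the adjusted limit. At the unadjusted limit 1 of 23 was higher and 1 lower, against 5.37% and 4.91% of all probes. Sirt1, the deacetylase of PGC-1α, was lower (-0.32, SE 0.12, limma adjusted p = 0.347). Mef2a, a muscle transcription factor that binds the Ppargc1a promoter, was higher (0.13, SE 0.06, adjusted p = 0.477). Ppargc1b, which encodes the related coactivator PGC-1β, gave -0.25 (SE 0.12, adjusted p = 0.498).

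All 27 listed PGC-1α target genes were measured, 20 of them with a difference above 0. Their median was 0.06, against 0 over all probes, and 0 passed the adjusted limit. At the unadjusted limit 4 of 27 were higher and 0 lower, where 5.37% of all probes were higher and 4.91% lower. Alas1, the first enzyme of heme synthesis, gave 0.30 (SE 0.09, limma adjusted p = 0.237), Slc2a4, the insulin-responsive glucose transporter GLUT4, 0.22 (SE 0.08, adjusted p = 0.37), and Cpt1b, which admits long-chain fatty acids to mitochondria, 0.14 (SE 0.06, adjusted p = 0.421). The fourth was Idh3a, a subunit of isocitrate dehydrogenase, at 0.17 (SE 0.08, adjusted p = 0.48), which is named after its value was seen. With normexp, Strada, Mef2a and Idh3a no longer passed the unadjusted limit (0.12, 0.13 and 0.17), and the other list genes named as passing it did.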

How the data were processed

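Gastrocnemius RNA of 16 mice (8 per diet) was hybridised to Agilent two-color 44k mouse arrays. Per the file headers the authors extracted spots with Feature Extraction 10.5.1.1 (10.5.5.1 per the labels' processing notes) from scans joined at 10% and 100% laser power. The deposited scanner files hold spot intensity in each channel. The authors' normalized table holds log2 values and served as an alternative only, since its centring is unknown. Probe positions are those of the files (mm8).

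Median signals were used, and control spots were left out. Spots whose signal, averaged over arrays, reached 2 times the background in Cy5 and in Cy3 stayed in (20703 spots, 19398 probes). Ratios were then loess-normalized within arrays, with weight 0 for outlier-flagged spots, which were left out afterwards. Spots of a probe were averaged. The diets were compared with limma 3.58.1 in R 4.3.3 (lmFit, eBayes) over all probes, with Benjamini-Hochberg adjustment and a limit of 0.05. Single probes had a two-sided exact permutation test (12870 splits, smallest p 0.0001554). Correlations had 1e+05 permutations. The planned background correction, normexp with offset 50, fitted a background SD of 752 to 1120 in Cy5 on 3 arrays, against 1.24 to 6.53 on 11 others and 121 and 130 on the last 2. The values shown therefore use no background correction, a choice made after seeing this, and the normexp values are printed beside them.

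The genes and lists were chosen with earlier results of these data known. All probes of the 10 genes were named. From each list the 3 genes with the lowest p were named, each by its brightest probe, and for each of the 10 genes the 2 named genes with the highest r. The code was tested with simulated 2-fold changes put into these arrays under mixed labels. That check used the normexp setting only, and smaller changes were not simulated. The arrays, 8 per group, limit the precision, and no reads were counted. Median Cy5 signal over background was 2.33 to 3.64 in cHF+ROSI and 2.98 to 3.46 in cHF+F+ROSI. Sequences are RefSeq's.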

Additional observations from a re-analysis of the deposited data

Results flagged for a closer look

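In 5 of 32 groups of 8 mice (16 probes in each diet group) the highest or lowest mouse stood apart from the rest, its gap to the nearest mouse over the whole range being above Dixon's 95% critical value. Chance flags about 1 group in 20, or 1.6 of 32. In cHF+F+ROSI mouse 2, Prkab1 was at -0.96 (next lowest -0.64, ratio 0.559) and the brighter Prkag1 probe at -0.72 (next -0.28, ratio 0.59). The same mouse had the lowest oxidative fibre mean, -2.11, and the part of fibre composition in these values was not tested. Its brighter Prkag1 spot was also low in Cy3, at 877, and the part of the spot in that value was not tested. The dimmer Prkag1 probe was at -0.48 in this mouse, with a Cy3 signal of 311. Prkag2 was at -0.09 in cHF+ROSI mouse 1 (next 0.21, ratio 0.618), which was the dimmest array. The brighter Adipor2 probe was at -0.40 in cHF+ROSI mouse 7 (next -0.19, ratio 0.645) and at 0.01 in cHF+F+ROSI mouse 8 (next -0.19, ratio 0.646). No effect was compared between tissues, time points or lines, since the design holds 1 contrast.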

How the results depend on the processing

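The planned fit with normexp was compared with 32 other settings, 16 of which left out an array. None of the 16 probes passed an adjusted p of 0.05 under any of them, with a lowest adjusted p of 0.233. The downstream Adipor1 probe had an unadjusted p up to 0.05 in 32 of these 33 fits. The exception was the authors' normalized table, where it stayed below 0 and 3 other probes passed (Prkab2, Prkag2 and the upstream Adipor2 probe). The count of unadjusted calls, 1 with normexp, was 2 without background correction, with Feature Extraction's processed signals, without the filter, with slide as a block, with array weights and without the 3 narrow arrays, and 3 with Cy5 alone. It was 1 to 3 when 1 array was left out. A replicate block also gave 2 calls (with Prkab2), but the numbers do not pair the mice: deviations of same-numbered mice correlated between -0.34 and 0.73, and 2 of 8 cHF+ROSI mice correlated best with their own number. The count of differences below 0, 11 with normexp, was 6 with Cy5 alone. The median of the upstream AMPK regulators moved from -0.01 to -0.05 with median centring. With normexp, Prkag1 and the oxidative mean correlated within cHF+ROSI at r = 0.85 (adjusted p = 0.105, permutation test). The sign of small differences turned as follows. The dimmer Prkaa1 probe gave 0.018 without correction, 0.015 with Feature Extraction's signals, 0.054 with median centring, 0.067 with Cy5 alone and -0.072 to 0.03 with 1 array left out. Prkaa2 gave -0.014 with median centring and -0.0058 to 0.079 with 1 array left out. The dimmer Prkag1 probe gave 0.0057 with scale normalization, 0.0067 with Cy5 alone and 0.016 in the table. The middle Adipor1 probe gave 0.0018 without correction, 0.048 with Cy5 alone, 0.068 in the table and -0.031 to 0.022 with 1 array left out. The upstream Adipor1 probe gave 0.14 with scale normalization and 0.0015 with Cy5 alone, and the brighter Adipor2 probe 0.057, 0.0084 (Cy5 alone) and 0.034 (table). The causes were not tested. Signal over background limits Prkag2 and the dimmer Prkaa1 probe most, and 8 mice per group leave intervals of up to 1.40-fold for Ppargc1a.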
